A study of Mus musculus with 33 samples.

Results

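The tumours compared here were 10 of the 33 mouse mammary tumour samples of the series, all of them transplanted tumours given RP-6306, and they were split by the number in their titles. MYT428, MYT410, MYT450, MYT427 and MYT431 formed the MYT400s (n = 5), and MYT2641, MYT2639, MYT2706, MYT2645 and MYT2642 formed the MYT2600s-2700s (n = 5). A further RP-6306 tumour without a title suffix, MYT968, belonged to neither number range and was in neither group. It entered the scaling of counts over all libraries and a later fit over all grouped libraries. Both groups carried the same labels: genotype FVB, tissue mammary tumour, and RP-6306 at 20 mg/kg, with a twice-daily abbreviation in the treatment field and a daily dose in the treatment protocol. The protocol mentions several treatment periods, but no source used here gives the period of each tumour. The design text names cyclin E transgenic and PyMT tumours, and the labels tie neither name to these 10 tumours. They do not say what the title numbers stand for, so a difference in tumour line, cohort, time on the drug or handling cannot be told apart from the number range. Whether each tumour was a different animal is also unstated, and the p-values therefore speak of the spread among these 10 samples, which may be technical.

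RP-6306 inhibits PKMYT1, a kinase that places inhibitory phosphate on CDK1 and so holds cells back from mitosis. WEE1 is the other kinase that restrains CDK1 in this way, and cells with high cyclin E activity, which enter DNA synthesis under replication stress, are known to rely on this restraint. Mammary tumours are mixtures of cancer cells, stroma, vessels and immune cells, and whole arms or chromosomes of cancer genomes are often gained or lost, which is known to move the RNA of many genes on them by small amounts.

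Libraries held 13701115 to 17213106 counts in the MYT400s and 15229808 to 19803269 in the MYT2600s-2700s. The labelled tissue was checked against markers: Epcam, an epithelial adhesion molecule, stood between 969 and 1934 CPM (counts scaled to a common library total) in all 10 tumours and Krt8, a luminal keratin, between 946 and 2674. The basal keratin Krt5 stood between 0.189 and 6.16 CPM, the oestrogen receptor gene Esr1 between 2.53 and 8.06, and the progesterone receptor gene Pgr between 0 and 0.197. On the first principal component of log2 CPM (29.8% of the variance) the MYT400s lay between 4.59 and 44.74 and the MYT2600s-2700s between -52.12 and -13.32. The second (18.6%) divided the MYT400s themselves, with MYT450 at -37.75 and MYT431 at -36.46 on one side and MYT427 at 46.34 on the other. Correlations across genes averaged 0.966 within the MYT400s, 0.972 within the MYT2600s-2700s and 0.959 between them. The closest pair of the MYT400s was MYT450 and MYT431 (0.983). These correlations are across genes, which are no independent replicates, and describe the libraries only.

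**Figure D1:**
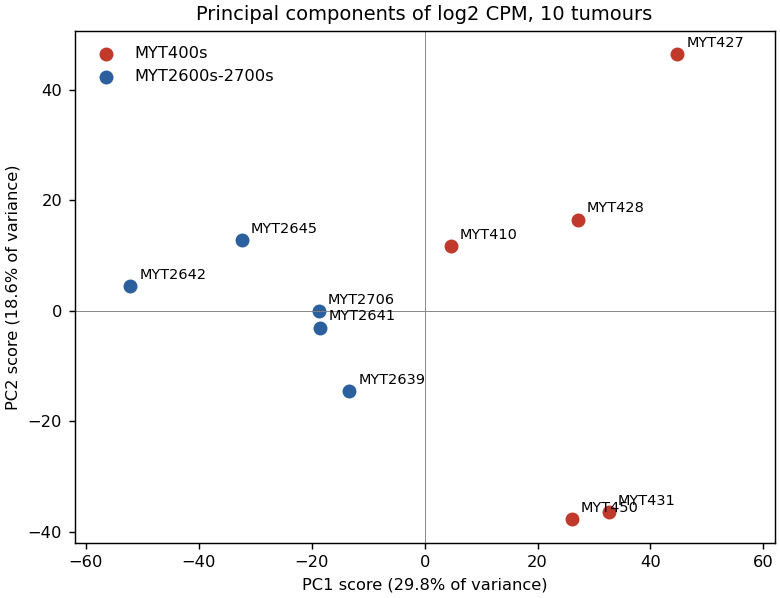
Scores of the 10 tumours on the first (x axis) and second (y axis) principal components of log2 CPM over the tested genes, with 1 point per tumour and colour for the title number range. All 5 MYT400s lie right of 0 and all 5 MYT2600s-2700s lie left of it, while MYT450 and MYT431 stand apart from MYT427 on the second component.

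Which genes differed between the number ranges was asked first. Of 15006 genes tested, 379 (2.53%) had an adjusted p under 0.05 in edgeR's quasi-likelihood test with Benjamini-Hochberg adjustment: 159 (1.06%) were higher and 220 (1.47%) lower in the MYT400s. The higher genes differed by more, with a median log2 fold change of 1.29 against -0.76 for the lower ones, and the median over all tested genes was 0.02. Groups did not overlap in CPM for 331 of the 379, against 963 (6.42%) of all tested genes (2.01% higher and 4.4% lower), and 3171 genes had an unadjusted p under 0.05. Genes chosen by p on these same values tend to separate the groups, so the 331 lend no further support. The number that passed moved with single libraries: it was 780 without MYT410, the MYT400s tumour nearest to the other group on the first component, and 152 without MYT428, 162 without MYT2641, 185 without MYT431, 193 without MYT2645, 229 without MYT2639, 233 without MYT2706, 247 without MYT427, 274 without MYT450 and 298 without MYT2642. A core of 111 genes passed in all 10 of these fits. Against a fold of at least 2, 2 genes passed, Slc25a48 and Nudt10, the latter barely expressed in the MYT2600s-2700s. In 1 fit over all 32 grouped libraries of the series, which takes its spread from all groups, 40 genes passed, of which 33 were among the 379. Of 69 genes examined singly that passed over the 10 tumours, 59 did not pass in that fit and 10 did: Hspb8, Itgb7, Fbxo21, Sdc1, Sdc2, Laptm4b, Nudt10, Nudt11, Capg and Fyn.

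Values per tumour are given below in the order MYT428, MYT410, MYT450, MYT427 and MYT431, then MYT2641, MYT2639, MYT2706, MYT2645 and MYT2642, and log2 fold changes are MYT400s minus MYT2600s-2700s with their SE. The gene with the smallest adjusted p was Slc25a48 (GRCm38 chromosome 13, 56438355 to 56474239), which encodes a carrier of the mitochondrial inner membrane. It stood at 11.3, 7.31, 17.8, 8.96 and 9.37 CPM in the MYT400s and at 1.45, 1.18, 0.504, 0.906 and 1.09 CPM in the MYT2600s-2700s. Every MYT400s tumour was several-fold above every tumour of the other group, and the log2 fold change was 3.44 ± 0.32 (edgeR adjusted p = 0.000869, and 0.0854 in the fit over all grouped libraries). Hspb8, a small heat shock protein, had the largest log2 fold change among genes that passed and averaged a log2 CPM of 1 or more. Its values were 150, 17.2, 103, 191 and 30.3 CPM against 7.13, 7.85, 8.32, 4.03 and 5.95 CPM. The groups did not overlap, but MYT410 and MYT431 stood far below the other MYT400s tumours (log2 fold change 3.92 ± 0.57, edgeR adjusted p = 0.00774).

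The other genes with the largest increases in the MYT400s were expressed at low to moderate levels. Rasd2, which encodes a small GTPase, stood at 2.39, 3.66, 1.97, 9.31 and 2.34 CPM against 0.316, 0.68, 0.063, 0.503 and 0.128 CPM, with no overlap (3.53 ± 0.60, adjusted p = 0.0124), and without MYT427 its log2 fold change was 2.91. Matn2, a matrix protein of the matrilin family, stood at 4.29, 1.90, 13.8, 5.61 and 8.53 CPM against 0.631, 1.79, 0.945, 0.453 and 1.02 CPM (2.84 ± 0.51, adjusted p = 0.0154). Fbxo21, a substrate adaptor of a ubiquitin ligase, stood at 11.0, 4.13, 7.86, 23.7 and 5.89 CPM against 2.08, 1.92, 1.83, 1.31 and 1.09 CPM (2.71 ± 0.44, adjusted p = 0.0119). For Matn2 the lowest MYT400s tumour, MYT410, lay just above the highest of the other group, and for Fbxo21 the gap was wider. These 3 genes and Slc25a48 and Hspb8 passed in all 10 fits that left out 1 library.

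Another 4 of the largest increases passed over all 10 tumours but not in every such fit, and they varied widely among the MYT400s. Ptpru, a receptor tyrosine phosphatase, reached 27.6 CPM in MYT427 and 5.37 to 11.2 in the other MYT400s, against 0 to 2.84 CPM (2.96 ± 0.68, and 2.35 without MYT427). Its groups did not overlap. Hapln2, a hyaluronan link protein, ranged from 0.406 to 11.4 CPM against 0.064 to 0.821 (3.15 ± 0.74, and 2.46 without MYT428). Itgb7, an integrin subunit best known from lymphocytes, was high in MYT450 (11.1 CPM), MYT431 (10.6) and MYT410 (2.98) but not in MYT428 (0.891) or MYT427 (0.616), against 0.384 to 1.05 (3.0 ± 0.73). Tlx3, a homeobox factor, ranged from 0.721 to 7.63 CPM against 0.309 to 1.01 (2.72 ± 0.55). Groups overlapped for Hapln2, Itgb7 and Tlx3. EdgeR adjusted p-values over all 10 tumours were 0.0406 for Ptpru, 0.0433 for Hapln2, 0.0486 for Itgb7 and 0.0231 for Tlx3. The largest adjusted p with 1 library left out was 0.0984 for Ptpru, 0.106 for Hapln2, 0.108 for Itgb7 and 0.0623 for Tlx3. MYT2639, MYT2706 and MYT2645 were each among the libraries whose removal ended these calls in all 4 genes. Removing MYT428 ended them in all but Itgb7, MYT2641 in all but Tlx3, MYT2642 in Hapln2 and Itgb7, MYT431 in Hapln2, Itgb7 and Ptpru, MYT450 in Hapln2 and Itgb7, and MYT427 in Ptpru.

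Among the largest decreases in the MYT400s, 5 held without any 1 library. Clca3a2 (chromosome 3, 144796559 to 144819494), which encodes a secreted regulator of calcium-activated chloride channels, had 67.3, 85.7, 160, 42.5 and 159 CPM against 373, 482, 470, 567 and 671 CPM. Every MYT400s tumour was at or below 160 CPM and every tumour of the other group at or above 373 (-2.29 ± 0.32, edgeR adjusted p = 0.00604, and 0.353 in the fit over all grouped libraries). Tspan8, a tetraspanin of epithelial membranes, had 1.62, 4.13, 4.32, 0.616 and 3.36 CPM against 23.8, 20.3, 7.94, 41.7 and 17.7 CPM (-2.96 ± 0.48, adjusted p = 0.0119). These tumours too did not overlap between the groups. Klhdc8a, a kelch domain protein, had 2.45, 2.37, 2.69, 1.44 and 1.92 CPM against 9.78, 9.40, 9.52, 5.74 and 12 CPM (-2.06 ± 0.25, adjusted p = 0.00481). Id4, an inhibitor of helix-loop-helix transcription factors, had 16.5, 25.8, 21, 6.30 and 15.7 CPM against 32, 67.8, 69.1, 77.8 and 98.5 CPM (-1.98 ± 0.33, adjusted p = 0.0119). Ccser1 ranged from 0.547 to 1.11 CPM against 1.52 to 7.15 (-2.23 ± 0.42, adjusted p = 0.0185).

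Another 4 of the largest decreases were less stable. Gjb1, the gap junction protein connexin 32 by its usual name, ranged from 0.3 to 2.12 CPM against 3.34 to 18.7 (-3.04 ± 0.65, edgeR adjusted p = 0.0305). Fcgbp, a secreted mucus protein, ranged from 6.23 to 27.3 CPM against 69.1 to 191 in 4 tumours and 9.91 in MYT2645, so its groups overlapped through that tumour (-2.51 ± 0.59, adjusted p = 0.0435). Bpifb4, of a family of secreted lipid-binding proteins, ranged from 0.411 to 3.21 CPM against 3.65 to 11.0 (-2.18 ± 0.46, adjusted p = 0.0286). Tspan1, another tetraspanin, ranged from 0.479 to 4.74 CPM against 5.80 to 14.2 (-1.98 ± 0.43, adjusted p = 0.0306). With 1 library left out, the largest adjusted p was 0.0736 for Gjb1, 0.0994 for Fcgbp, 0.0735 for Bpifb4 and 0.0789 for Tspan1. Leaving out MYT428 ended the call of each of these 4 genes, leaving out MYT431 did so too, MYT2641 in all but Gjb1, MYT2639 and MYT450 in all but Bpifb4, MYT2645 in all but Fcgbp, MYT2706 in Fcgbp and Bpifb4, and MYT410, MYT2642 and MYT427 in Fcgbp.

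**Figure D2:**
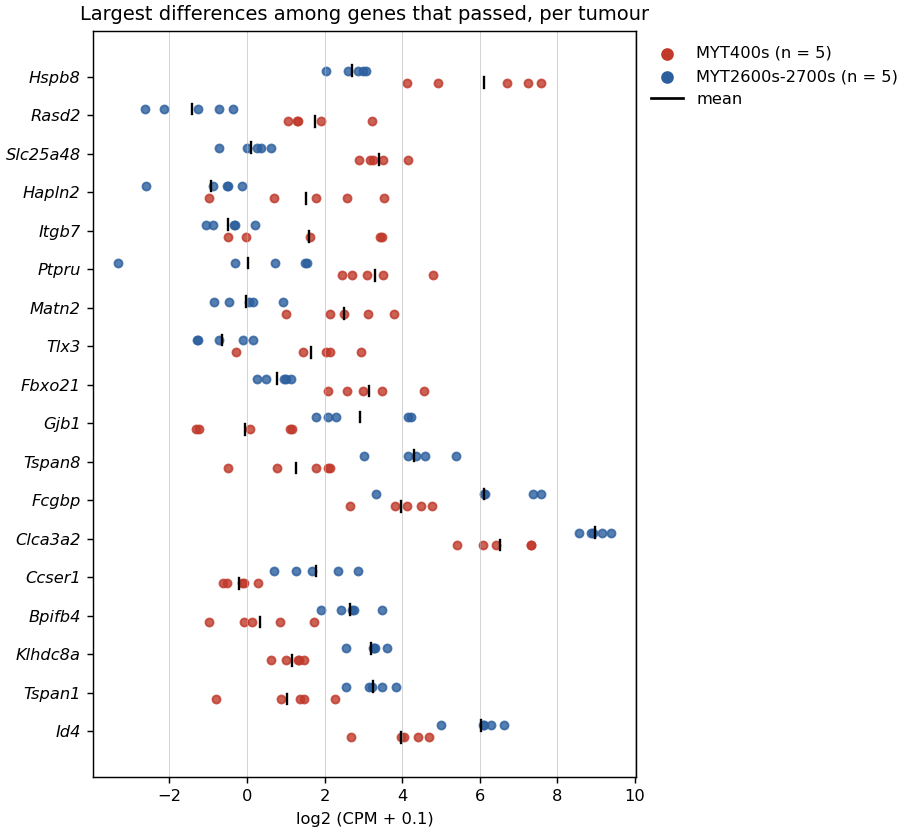
Levels of the 18 genes named for the largest differences among those that passed (9 higher, then 9 lower in the MYT400s), as log2 of CPM plus 0.1 on the x axis, with 1 point per tumour and a black bar for the mean of the 5 tumours of a group. Slc25a48, Hspb8 and Clca3a2 show a clear gap between the groups, whereas Hapln2, Itgb7, Tlx3 and Fcgbp overlap.

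In the untreated and vehicle groups of the series these genes had no shared order, which is given as a description since no test joined these groups to the 10 tumours. Slc25a48 stood between 0.568 and 27.1 CPM in the 5 tumours titled SPON, between 0.190 and 1.13 in the 5 titled WT, and between 0.0722 and 3.0 in the 4 vehicle tumours without a title suffix. Clca3a2 stood between 257 and 1060 CPM in WT, between 3.08 and 101 in SPON and between 0.968 and 100 in these vehicle tumours. Hspb8 stood between 5.65 and 115 CPM in SPON, 8.18 and 33.6 in WT and 35.2 and 47.8 in vehicle. The vehicle tumours thus lay above all MYT2600s-2700s tumours in Hspb8 and within the range of the MYT400s, while SPON tumours spanned the levels of both. A further tumour titled VEH2860, whose dose label read 20 mg/kg, was placed in no group. It is left out here and in the fit over all grouped libraries.

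The kinase that the drug inhibits and its partners were asked about next. Pkmyt1 stood at 94.7, 71.8, 70.1, 59.3 and 90.9 CPM in the MYT400s and at 76.1, 83.7, 77.5, 86.0 and 78.9 CPM in the MYT2600s-2700s, a log2 fold change of -0.02 ± 0.13 (edgeR adjusted p = 0.936). The 5 values of the MYT2600s-2700s lay inside the range of the MYT400s. Wee1 had 32.3 ± 4.27 CPM (SD, n = 5) against 40.7 ± 3.71 (SD, n = 5; edgeR adjusted p = 0.191), Cdk1 211 ± 67.8 against 178 ± 65.9 (0.550) and Ccnb1, which encodes the cyclin partner of CDK1, 110 ± 20.5 against 155 ± 47.7 (0.239). The cyclin E genes Ccne1 (0.12 ± 0.28, adjusted p = 0.853) and Ccne2 (0.20 ± 0.27, 0.720), their kinase Cdk2 (0.18 ± 0.10, 0.342), the tumour suppressor Trp53 (0.39 ± 0.17, 0.206) and the proliferation marker Mki67 (0.19 ± 0.17, 0.571) did not pass. The mouse cyclin E genes need not report a transgene, and how its reads were counted is not stated.

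Cdkn1a, which encodes the CDK inhibitor p21 and is a textbook target of p53, was the exception among these 10 genes. It stood at 37.5, 40.8, 47.2, 25.9 and 42.6 CPM in the MYT400s and at 70.9, 71.8, 59.9, 80.2 and 90.3 CPM in the MYT2600s-2700s. All MYT400s tumours lay below all tumours of the other group, and the log2 fold change of -0.91 ± 0.16 (edgeR adjusted p = 0.0124) passed without any 1 library but not in the fit over all grouped libraries (adjusted p = 0.0869). In the list of other p53 targets 1 of 24 tested genes passed, the death receptor gene Tnfrsf10b (-0.61 ± 0.13, adjusted p = 0.0298, and up to 0.0679 without 1 of MYT2641, MYT2639, MYT2706, MYT2645, MYT450, MYT427 and MYT431), and the list's median log2 fold change was -0.06. In the cyclin E and G1 control list 2 of 23 passed, Cdkn1a and Cdkn2b, where 2.53% of all tested genes passed. Cdkn2b encodes the CDK4/6 inhibitor p15 and had 24.4 ± 9.03 CPM against 54.6 ± 5.06 (SD, n = 5 each; -1.13 ± 0.21, edgeR adjusted p = 0.0185, and 0.0512 without MYT428). Its neighbour Cdkn2a had 93.0 ± 33.3 against 174 ± 47.1 CPM and did not pass (adjusted p = 0.0686).

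Over all 46 gene lists, 19 of 799 tested genes passed (2.38%), 8 higher and 11 lower, close to the 2.53% of all tested genes. The 8 lists whose members were named by rule were those with most genes that passed, so nothing is read from their counts. No gene passed in the lists of the CDK1 switch (17 tested, median log2 fold change -0.23), G2/M and mitosis (36 tested, -0.15) and DNA repair and checkpoint (29 tested, 0.12). In DNA replication 2 of 37 passed. Pola1, the catalytic subunit of the polymerase that primes replication, was lower, at 27.0, 23.6, 28.1, 25.7 and 30.9 CPM against 45.6, 39.5, 37.1, 45.2 and 45.4 CPM, with no overlap (-0.62 ± 0.12, edgeR adjusted p = 0.0178). Tk1, thymidine kinase, was higher (139 ± 19.4 against 99.6 ± 13.7 CPM, SD, n = 5 each; 0.52 ± 0.13, edgeR adjusted p = 0.0496), with overlap, and its call was kept only without MYT410 among the fits that left out 1 library (largest adjusted p 0.113). Pole, a replicative polymerase subunit, missed the threshold (0.56 ± 0.14, adjusted p = 0.0539).

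Among lists of tumour cell identity, 2 of 25 luminal epithelial genes passed, both lower in the MYT400s, where 1.47% of all tested genes were lower. Krt7, a keratin of simple epithelia, had 794, 537, 505, 387 and 386 CPM against 1156, 1284, 1486, 1346 and 2210 CPM, without overlap (-1.49 ± 0.23, edgeR adjusted p = 0.00975). Epcam had 1116 ± 165 against 1732 ± 202 CPM (SD, n = 5 each; -0.60 ± 0.14, edgeR adjusted p = 0.0435), but this call was kept only without MYT410 or MYT2706 (largest adjusted p 0.0990). Of the 25 luminal genes tested, 5 had a positive log2 fold change, and the median was -0.25. The summed level of the luminal list was 5900 to 9140 CPM in the MYT400s and 10200 to 13800 in the MYT2600s-2700s, with no overlap. In bulk tumours, fewer cells of a type and less RNA per cell cannot be told apart. The E-cadherin gene Cdh1 (-0.59 ± 0.17, adjusted p = 0.0718), Erbb2 (-0.48 ± 0.14, 0.0777), Krt8 (-0.53 ± 0.20, 0.157) and the basal keratin Krt14 (-1.30 ± 0.34, 0.0603) did not pass. Of the milk and alveolar list, Mfge8, a milk fat globule protein, had 1371 ± 258 against 2672 ± 420 CPM (-0.93 ± 0.17, edgeR adjusted p = 0.0155, kept without any 1 library), while the caseins Csn1s1 (0.55 ± 0.19, 0.128) and Csn2 (0.96 ± 0.50, 0.286) did not pass.

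Genes of growth factor and stress pathways passed singly, where 2.53% of all tested genes passed. Tgfa, a ligand of the EGF receptor, had 35.4, 56.4, 38.9, 42.2 and 44.3 CPM against 75.6, 77.8, 75.2, 94.9 and 83.2 CPM. The groups did not overlap (-0.87 ± 0.14, edgeR adjusted p = 0.00975), and it was the 1 of 10 tested ErbB receptors and ligands to pass. In the list of NRF2 targets and glutathione genes 2 of 21 passed, both lower (1.47% of all tested genes were). The glutathione peroxidase Gpx2 had 60.0, 69.3, 45.7, 58.0 and 62.3 CPM against 144, 135, 111, 146 and 95.2 CPM (-1.06 ± 0.15, adjusted p = 0.00604), and the sulfiredoxin gene Srxn1 had 24.6 ± 3.31 against 38.6 ± 7.15 CPM (SD, n = 5 each; -0.62 ± 0.15, edgeR adjusted p = 0.0430, largest 0.0994 with 1 library left out, kept only without MYT410, MYT2706 or MYT450). The list's median of -0.03 was near that of all genes. Of 25 hypoxia genes, only the collagen hydroxylase Plod2 passed, higher at 57.5 ± 9.91 against 31.2 ± 3.76 CPM (0.92 ± 0.14, adjusted p = 0.00975, no overlap).

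Stromal and immune lists held few genes that passed, where 2.53% of all tested genes passed. Over the 24 fibroblast and collagen genes tested the median log2 fold change was 0.74, with 21 positive and 0 that passed, and their summed level was 2380 to 7500 CPM in the MYT400s and 2240 to 5440 in the MYT2600s-2700s. The lists of interferon-stimulated genes (42 tested), MHC class I (22), MHC class II (10), endothelium (18) and oxidative phosphorylation (44) held no gene that passed either. Among immune markers, Ccl5, a chemokine, was higher, at 9.80, 13.5, 5.44, 10.4 and 5.35 CPM against 3.03, 3.15, 3.47, 3.57 and 3.71 CPM, without overlap (1.43 ± 0.27, edgeR adjusted p = 0.0187, and 0.0529 without MYT2641). Cd68, a macrophage lysosomal protein, was higher with overlap (0.69 ± 0.15, adjusted p = 0.0308, largest 0.0817 with MYT428, MYT2641, MYT2706, MYT2645, MYT2642, MYT450 or MYT431 left out in turn), the only 1 of 22 tested macrophage genes. The summed level of NK and cytotoxic markers, of which Ccl5 made up 68.8%, was 9.31 to 17.8 CPM against 4.61 to 6.11, and without Ccl5 it was 0.958 to 5.57 against 1.58 to 2.65, with overlap. Likewise the B cell and plasma cell sum was 154 to 354 against 534 to 1010 CPM, but 98.0% of it was Sdc1, which epithelium also expresses, and without Sdc1 it was 6.77 to 30.7 against 4.08 to 11.4, with overlap. Squamous keratinocyte markers summed to 229 to 478 against 506 to 914 CPM, with 0 of 9 tested genes passing and 59.5% of the sum in Lgals7. Without Lgals7 the sum of these markers was 137 to 210 against 197 to 329, with overlap. Their part and that of the luminal list in the results for single genes was not tested.

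Some gene families, picked after their values were seen, had members on both sides. Syndecan 1 (Sdc1), a heparan sulphate proteoglycan of epithelial surfaces, had 271, 324, 313, 147 and 207 CPM against 604, 594, 530, 649 and 1010 CPM (-1.39 ± 0.23, edgeR adjusted p = 0.0116). Syndecan 2 (Sdc2) had 59.6, 18.8, 106, 51.4 and 80.8 CPM against 11.1, 10.1, 12.4, 8.05 and 12.8 CPM (2.57 ± 0.34, adjusted p = 0.00604). Both separated the groups, in opposite directions. Of 26 tested genes with an Itga or Itgb symbol, leaving out Itgae and integrin-binding proteins, 4 were lower (1.47% of all tested genes were). They were the collagen and laminin receptor subunits Itga2 (-1.45 ± 0.29, adjusted p = 0.0213, and 0.0522 without MYT428) and Itga3 (-1.33 ± 0.25, 0.0187), and Itgb3 (-1.40 ± 0.29, 0.0245) and Itgb5 (-0.56 ± 0.14, 0.0486). The last 2 did not hold in every fit either. Itgb3 was lost without 1 of MYT428, MYT2639, MYT2645, MYT450 and MYT431 (adjusted p up to 0.0615), and Itgb5 was kept only without MYT410 or MYT450 (up to 0.111). Itgb7 was higher. Of 19 tested genes with a Tspan symbol 4 were lower (Tspan1, Tspan8, Tspan9 and Tspan17) and 0 higher, where 1.47% and 1.06% of all tested genes were. Tetraspanins under other symbols were not counted. These families were picked because members passed, so nothing is read from their counts. Clca3a1, the neighbour of Clca3a2, had 33.0 ± 20.9 against 90.8 ± 11.3 CPM (SD, n = 5 each; -1.43 ± 0.31, edgeR adjusted p = 0.0306, and up to 0.0800 without 1 of MYT428, MYT2641, MYT2639, MYT2706, MYT2645 and MYT450). Reads that match both of these related genes may have been dropped or given to the wrong gene.

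Clusterin (Clu), a secreted chaperone, had 213 ± 71.1 CPM in the MYT400s and 683 ± 238 in the MYT2600s-2700s (SD, n = 5 each; -1.65 ± 0.27, edgeR adjusted p = 0.0119), and the serine protease Prss22 had 27.8 ± 8.30 against 99.6 ± 30.3 (-1.81 ± 0.25, adjusted p = 0.00604). The tight junction gene Cldn10 (-1.55 ± 0.28, adjusted p = 0.0155) was lower too. Higher in the MYT400s were Fyn, a Src family kinase (40.8 ± 8.51 against 18.8 ± 3.75 CPM, 1.15 ± 0.18, adjusted p = 0.00975), and Mxra8, a matrix remodelling protein (33.6 ± 13.7 against 11.5 ± 2.59, 1.58 ± 0.25, 0.0111). The N-cadherin gene Cdh2 had 6.57, 1.02, 10.2, 6.57 and 9.01 CPM against 0.442, 1.11, 1.07, 1.21 and 1.47 CPM (2.67 ± 0.50, adjusted p = 0.0178). It was high in 4 of the MYT400s and at the level of the other group in MYT410. It was also the only 1 of 19 tested EMT genes to pass, where 2.53% of all tested genes passed. These 6 genes were named after their values were seen and passed without any 1 library.

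The genes that passed were unevenly spread over the genome. Chromosomes 5, 6 and 12, named after the values were seen, held 33.2% of them but 15.1% of the tested genes. On chromosome 12, 45 of 526 tested genes were lower (8.56%, against 1.47% over all chromosomes) and 3 higher. On chromosome 6, 46 of 770 were lower (5.97%) and 3 higher. On chromosome 5, 28 of 973 were higher (2.88%, against 1.06% over all chromosomes) and 1 lower. On the other chromosomes together 1.98% of 12726 genes passed, 124 higher and 128 lower. DNA copy number was not measured in the files used here.

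**Figure D3:**
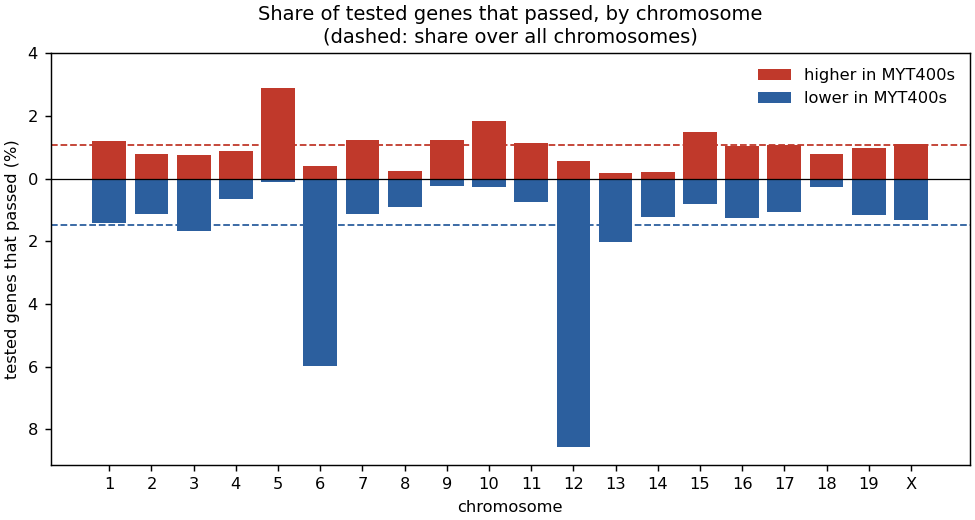
Share of tested genes that passed on each chromosome (x axis), as a percentage on the y axis, with genes higher in the MYT400s above 0 and lower ones below, and dashed lines for the shares over all chromosomes (1.06% and 1.47%). Chromosomes 6 and 12 stand out below 0, at 5.97% and 8.56%, and chromosome 5 above it, at 2.88%.

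The median log2 fold change was 0.22 over chromosome 5, where 79.8% of tested genes were positive, -0.19 over chromosome 6, where 32.1% were positive, and -0.24 over chromosome 12, where 24.3% were positive. Over all chromosomes it was 0.02, with 52.7% positive. By level, genes under an average log2 CPM of 3 had medians of 0.40, 0.08 and -0.05 on chromosomes 5, 6 and 12, against 0.19 over all chromosomes. Genes of 3 to 6 had 0.21, -0.21 and -0.28, against 0.01, and genes of 6 or more had 0.16, -0.28 and -0.33, against -0.04. In each class chromosome 5 lay above the median of all chromosomes and chromosomes 6 and 12 below it, but on chromosome 6 the median of the low genes was positive. With any 1 library left out, the medians stayed between 0.19 and 0.25, between -0.21 and -0.17, and between -0.29 and -0.21. The numbers that passed moved with those of all genes: on chromosome 12 from 16 (3.04%, against 0.612% over all chromosomes) without MYT428 to 72 (13.7%, against 3.08%) without MYT410, on chromosome 6 from 19 (2.47%) to 79 (10.3%) against the same shares, and on chromosome 5 from 9 (0.925%, against 0.389%) to 41 (4.21%, against 2.06%), with the same 2 libraries at the ends.

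Tumour by tumour, each chromosome was described by the median, over its tested genes, of log2 CPM relative to the mean of the other 9 tumours. Chromosome 6 was -0.12, -0.01, -0.14, -0.10 and -0.11 in the MYT400s and 0.09, 0.12, 0.13, 0.14 and 0.11 in the MYT2600s-2700s, so MYT410 stood near 0 while the other MYT400s were low and the other group was uniformly high. Chromosome 5 was 0.14, 0.14, 0.13, 0.06 and 0.15 in the MYT400s, but in the other group it was low in MYT2641 (-0.16), MYT2706 (-0.18) and MYT2645 (-0.23) and near 0 in MYT2639 (0.01) and MYT2642 (0.01). Chromosome 12 was -0.24, -0.09, -0.11, -0.15 and -0.10 in the MYT400s, and the same 3 tumours stood out in the other group, at 0.24 each, with -0.01 in MYT2639 and 0.02 in MYT2642. So the MYT2600s-2700s were not uniform on chromosomes 5 and 12, nor the MYT400s on 6 and 12 or, through MYT427 (0.06), on 5. These were the 3 chromosomes whose medians did not overlap between the groups.

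On other chromosomes the groups overlapped, with departures in 1 or several tumours. Chromosome 10 (median log2 fold change 0.15, 68.1% positive) was 0.16, 0.14, -0.05, 0.26 and -0.11 in the MYT400s and -0.17, -0.11, -0.12, -0.12 and 0.07 in the MYT2600s-2700s. Its sixth window of 50 tested genes had the highest median of any such window (0.51), with 0.59 in MYT428 and 0.77 in MYT427 and -0.33 to 0.02 in the other 8 tumours. Chromosome 15 (0.17, 68.5% positive) ran from -0.14 to 0.35 in the MYT400s, highest in MYT427, and from -0.22 to 0.10 in the other group. MYT427 had 0.42 on chromosome 19, and both MYT427 and MYT428 had -0.24 on chromosome 8. MYT410 (-0.20) and MYT2639 (-0.24) were low on chromosome 18. Mitochondrially encoded genes were a separate case: their share of all counts was 3.632% ± 0.676 in the MYT400s and 2.661% ± 0.3 in the MYT2600s-2700s (SD, n = 5 each; exact two-sided permutation p = 0.0159, adjusted 0.0635 over 4 library measures, 0.00794 being the smallest p the design allows). Without MYT410 the adjusted p of this permutation test was 0.0423, and without any other 1 library it lay between 0.0635 and 0.127. Of the 15 mitochondrial genes tested, 0 passed singly, where 2.53% of all tested genes passed. All 15 had a positive log2 fold change, with a median of 0.49.

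**Figure D4:**
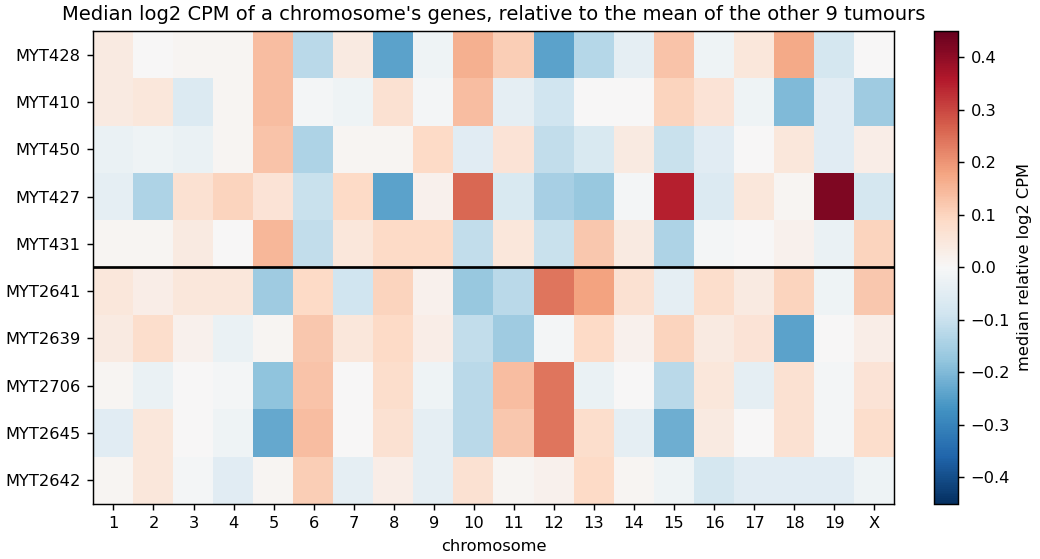
Median log2 CPM of the tested genes of each chromosome (columns) in each tumour (rows), relative to the mean of the other 9 tumours, with red above and blue below 0 and a line between the groups. On chromosome 6 all MYT2600s-2700s are above 0 and MYT410 is near 0, on chromosomes 5 and 12 MYT2641, MYT2706 and MYT2645 stand out within their group, MYT428 is as low on chromosome 12 (-0.24) as these 3 are high, and MYT427 is high on chromosomes 10, 15 and 19.

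Along the chromosomes the tested genes were taken in order in windows of 50. On chromosome 5 all 19 windows had a positive median log2 fold change (0.09 to 0.34) and in 8 the tumours of the groups did not overlap. On chromosome 6, 14 of 15 windows were negative and 11 did not overlap. The exception, with 0.08, was the first window, from 3333194 to 18322768. Over the whole genome 30 of 299 windows (10%) did not overlap, 11 higher and 19 lower, so these 3 chromosomes held 8 of the 11 and 16 of the 19.

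Chromosome 12 changed along its length. All 11 windows were negative (-0.41 to -0.06), and the first 5, from 3235504 to 76580488, did not overlap. In the third of them, from 31640050 to 54862877, the relative level was -0.31, -0.17, -0.21, -0.23 and -0.24 in the MYT400s and 0.41, 0.11, 0.22, 0.19 and 0.20 in the MYT2600s-2700s. Of the 50 genes in it 11 were lower, against 8.56% over chromosome 12 and 1.47% over all tested genes. In the seventh, from 83688152 to 86306006, MYT2706 (0.45) and MYT2645 (0.42) were high, MYT2641 stood at 0.16, and MYT2639 (-0.28) and MYT2642 (-0.07) stood with or below the MYT400s (-0.22 to 0.06). The 5 windows from the seventh on held 4 genes that were lower, against 33 in the first 5, and there the groups overlapped.

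**Figure D5:**
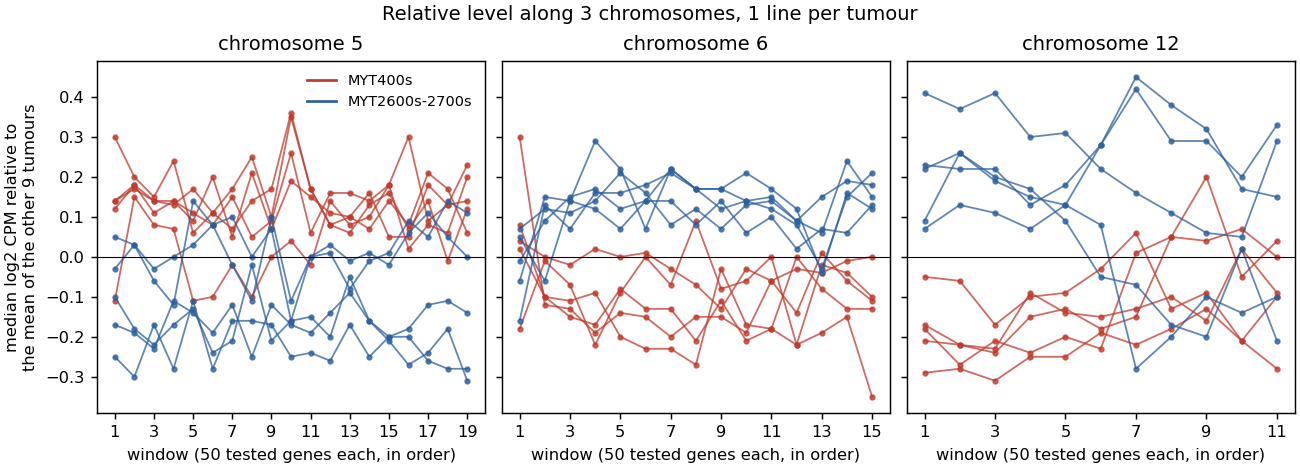
Relative log2 CPM along chromosomes 5, 6 and 12 in windows of 50 tested genes in genome order (x axis), 1 line per tumour, with the median over the window relative to the mean of the other 9 tumours on the y axis. On chromosome 12 the groups are apart in the first 5 windows and mixed from the seventh on, where MYT2706 and MYT2645 are highest.

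Single genes on these chromosomes are given by the smallest p among those that passed, a choice that favours large and tight differences. On chromosome 6, Tspan9 had 67.0, 67.2, 82.3, 58.5 and 54.8 CPM against 126, 137, 141, 123 and 131 CPM (-0.97 ± 0.11, edgeR adjusted p = 0.00481). Capg, an actin filament capping protein, had 249 ± 34.7 against 489 ± 66.6 CPM (SD, n = 5 each; -0.94 ± 0.13, edgeR adjusted p = 0.00604), and Gabarapl1, of the autophagy machinery, had 118 ± 11.3 against 200 ± 19.8 (-0.72 ± 0.11, 0.00975). Rab11fip5, a partner of RAB11 in vesicle recycling, had 121 ± 17.4 against 222 ± 20 (-0.85 ± 0.12, adjusted p = 0.00604). On chromosome 12, Pnpla8, a phospholipase, had 32.6, 35.8, 32.7, 31.2 and 30.8 CPM against 55.0, 48.4, 51.3, 54.1 and 52.5 CPM (-0.65 ± 0.10, adjusted p = 0.00975). Both Tspan9 and Pnpla8 varied little within either group. Asap2 (-0.91 ± 0.13, adjusted p = 0.00774) and Fam84a (-1.79 ± 0.26, 0.00798) were lower as well, and the chromosome also carries Sdc1 and Gpx2. On chromosome 5, Cdc7, a kinase that fires replication origins, had 35.5, 38.5, 29.1, 29.4 and 41.1 CPM against 22.9, 20.6, 20.2, 20.2 and 19.3 CPM, with no overlap (0.78 ± 0.13, adjusted p = 0.0119). Orai2, a calcium channel subunit, had 21.6 ± 2.42 against 10.7 ± 2.62 (1.04 ± 0.18, 0.0124), and Hspb8 and Fbxo21 lie on chromosome 5 too.

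Neighbouring genes also passed together. The longest run of adjacent tested genes that passed was Churc1, Fntb, Gpx2 and Rab15 on chromosome 12 (76765538 to 76921412), all lower. Fntb, a farnesyltransferase subunit, had 34.4 ± 3.11 against 50.2 ± 3.53 CPM (SD, n = 5 each; -0.51 ± 0.11, edgeR adjusted p = 0.0306) and Rab15, a small GTPase, 114 ± 5.98 against 197 ± 37.1 (-0.76 ± 0.13, 0.0148). Fntb was kept only without MYT410, MYT2642 or MYT427 (adjusted p up to 0.0784), and Churc1 (-0.60 ± 0.14, 0.0436) only without MYT410 or MYT2641 (up to 0.102). On chromosome 15, Laptm4b, a lysosomal membrane protein, and Matn2 (34238028 to 34436273 together) were higher. Laptm4b had 61.8, 33.3, 45.8, 73.8 and 35.3 CPM against 7.39, 10.3, 18.8, 13.3 and 15.6 CPM (1.97 ± 0.27, adjusted p = 0.00604), and Sdc2, also higher, lies on the same chromosome (32920723 to 33034935). On chromosome 7, Ceacam20 (2.35 ± 0.37, adjusted p = 0.00975) and Nlrp9b (2.53 ± 0.57, 0.0361, kept only without MYT410, MYT2706 or MYT450, otherwise up to 0.0895) were higher.

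For 2 pairs of related neighbours that passed together, Dlx1 with Dlx2 and Nudt10 with Nudt11, the 250 bases before the RefSeq start of each gene are shown (RefSeq, GRCm38.p6, 5′ to 3′ on the gene's strand) to set the pairs side by side. The letters GGGCGG and CCAAT, searched on both strands, are in capitals. Dlx1 lies at chr2:71529195-71529444 (+), Dlx2 at chr2:71546755-71547004 (-), Nudt10 at chrX:6172992-6173241 (-) and Nudt11 at chrX:6047257-6047506 (+).
Dlx1: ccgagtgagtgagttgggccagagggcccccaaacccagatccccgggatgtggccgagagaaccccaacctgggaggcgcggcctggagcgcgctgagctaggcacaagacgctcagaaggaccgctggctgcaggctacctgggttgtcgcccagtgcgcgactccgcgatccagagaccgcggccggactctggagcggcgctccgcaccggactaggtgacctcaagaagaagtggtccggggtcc
Dlx2: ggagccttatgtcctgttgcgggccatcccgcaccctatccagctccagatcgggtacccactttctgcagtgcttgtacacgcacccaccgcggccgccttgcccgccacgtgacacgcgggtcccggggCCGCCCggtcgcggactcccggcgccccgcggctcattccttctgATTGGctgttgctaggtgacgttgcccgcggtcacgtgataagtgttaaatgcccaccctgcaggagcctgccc
Nudt10: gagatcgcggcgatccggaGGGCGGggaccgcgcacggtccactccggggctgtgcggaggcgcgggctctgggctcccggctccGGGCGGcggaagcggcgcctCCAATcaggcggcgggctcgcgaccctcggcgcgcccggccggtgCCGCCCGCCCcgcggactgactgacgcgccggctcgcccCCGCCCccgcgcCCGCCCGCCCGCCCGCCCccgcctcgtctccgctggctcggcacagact
Nudt11: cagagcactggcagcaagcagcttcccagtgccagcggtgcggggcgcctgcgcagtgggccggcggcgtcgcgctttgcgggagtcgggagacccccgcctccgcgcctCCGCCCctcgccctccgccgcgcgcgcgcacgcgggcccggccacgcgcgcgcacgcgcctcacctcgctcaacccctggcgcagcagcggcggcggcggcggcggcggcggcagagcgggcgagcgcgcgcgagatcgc

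All 4 windows were rich in C and G (68.0% in Dlx1, 66.4% in Dlx2, 82.4% in Nudt10 and 81.2% in Nudt11). GGGCGG occurred 0, 1, 9 and 1 times in Dlx1, Dlx2, Nudt10 and Nudt11, with overlapping matches counted, and CCAAT 0, 1, 1 and 0 times, while TATAAA occurred in none of them. Over 32851 promoter windows of the same length, 32.7% held GGGCGG, 33.8% CCAAT and 12.4% TATAAA. A match describes the letters only. In GENCODE the Dlx1 gene starts at 71528113, so its window lies inside that gene. The windows of Nudt10 (GENCODE end 6173015) and Nudt11 (GENCODE start 6047453) run into theirs. For Nudt10 the bases after the RefSeq start were not found in a transcript. The windows are therefore not all upstream of the GENCODE genes.

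Dlx1 and Dlx2, homeobox genes that lie tail to tail, were both higher in the MYT400s. Dlx1 had 64.5, 22.3, 34.3, 63.3 and 35.7 CPM against 15.1, 15, 9.96, 11.4 and 7.68 CPM, without overlap (1.93 ± 0.29, edgeR adjusted p = 0.00975). Dlx2 had 41.9, 10, 27.3, 53.1 and 24.7 CPM against 12, 8.41, 9.39, 9.66 and 2.88 CPM, with MYT410 inside the range of the other group (1.92 ± 0.41, adjusted p = 0.0306, and up to 0.0735 without 1 of MYT428, MYT2641, MYT2639, MYT2706, MYT2645 and MYT427). In both genes MYT428 and MYT427 were highest and MYT410 lowest of the MYT400s. The 4 Dlx genes tested had a median log2 fold change of 1.59, and Dlx4 (1.25 ± 0.34, adjusted p = 0.0683) and Dlx3 (0.13 ± 0.47, 0.908) did not pass.

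Nudt10 and Nudt11, which encode nudix hydrolases of inositol pyrophosphates, were the nearest to an on and off difference. Nudt10 had 2.73, 0.948, 1.90, 1.85 and 3.18 CPM against 0.126, 0.0618, 0, 0.0503 and 0 CPM, from 172 and 4 counts in all (5.29 ± 0.60, edgeR adjusted p = 0.00428). Nudt11 had 3.23, 1.83, 2.56, 2.67 and 4.80 CPM against 0.189, 0, 0.315, 0 and 0 CPM, from 243 and 8 counts (4.88 ± 0.68, adjusted p = 0.00604), and its log2 fold change was 5.88 without MYT2706. With so few counts in the MYT2600s-2700s the fitted size is uncertain. Both genes passed the filter on low counts through the MYT400s alone, so their fold changes and adjusted p-values are given as a description only. The 2 genes are close copies, so reads that match both may have been dropped or given to the wrong gene. MYT968 had 0 CPM of Nudt10 and 0.0973 of Nudt11. In untreated tumours titled WT, Nudt11 stood between 0.254 and 3.26 CPM, in those titled SPON between 0 and 0.982, and in vehicle tumours without a suffix between 0 and 0.0691.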

How the data were processed

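RNA was extracted from mouse mammary tumours with Trizol and sequenced commercially, per the labels' protocols. Tools named in the submitters' processing notes are STAR 2.7.10a, HTSeq and edgeR, with the genome build GRCm38. The annotation release, the kit and its strandedness are not given in the sources used here, so reads of overlapping and antisense genes may not have been told apart. The authors' deposited table held whole-number read counts for 54532 genes (791 without a symbol, 0.0482% of counts, kept under their identifiers). A deposited table of normalised values was not used.

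Samples were grouped by the number in their titles. The members, gene lists and tests were chosen with earlier results of these data known. Counts of the 10 tumours were filtered with filterByExpr, scaled with TMM and tested with glmQLFit and glmQLFTest (edgeR 4.0.16, R 4.3.3), with Benjamini-Hochberg adjustment over all tested genes and a threshold of 0.05. A gene expressed in the MYT400s alone or in the MYT2600s-2700s alone could pass filterByExpr. The standard error came from the F statistic. CPM values used TMM factors over all 33 libraries. Library measures were compared with exact permutation tests. Principal components and relative levels used log2 CPM with a prior count of 2. Named genes were 10 panel genes, the 10 most positive and 10 most negative log2 fold changes of genes that passed and averaged a log2 CPM of 1 or more, the 3 members of smallest p in each of the 8 lists with most genes that passed, and tissue markers. Of these, 2 genes are not reported here. Other named genes, the chromosomes and the families were chosen after their values were seen. Positions came from GENCODE M21 on GRCm38 and promoters from RefSeq on GRCm38.p6. Only pairs within a group were checked for copies. No library was a copy of another of its group, since all these pairs exceeded counting noise. Their chi-square per degree of freedom was 16.12 and more, and 16.42 for MYT450 with MYT431. This does not show that they came from separate animals, and each was counted as 1 sample.

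Alternatives were limma 3.58.1 voom with or without quality weights, DESeq2 1.42.0, its size factors in edgeR, an unfiltered table, a test against a fold of 2, a joint fit of the 32 grouped libraries, other window sizes and each library left out in turn. The fit was tested on simulated counts. Total counts of 13701115 to 19803269 per library set the precision, and low genes rest on few counts.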

Additional observations from a re-analysis of the deposited data

Results flagged for a closer look

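In a group of 5 tumours, 1 value was called distant where its gap to the nearest of the others was over 0.71 of the group's range. Of 210 sets of 5 values checked, 10 met this, where chance gives about 1 in 20. In the MYT400s, MYT410 stood apart in Ccne2 (10.1 CPM, the others 4.01 to 5.47) and Cdh1 (408 CPM, the others 229 to 256), and MYT427 in Rasd2 (9.31 CPM, the others 1.97 to 3.66), Ptpru (27.6 CPM, the others 5.37 to 11.2) and the relative level of chromosome 5 (0.06, the others 0.13 to 0.15). In the MYT2600s-2700s, MYT2642 stood apart in Pole (35.7 CPM, the others 44.4 to 46.9), Sdc1 (1010 CPM, the others 530 to 649) and Krt14 (442 CPM, the others 204 to 241). MYT2645 stood apart in Ero1l (192 CPM, the others 87.1 to 116) and in its total of 19803269 counts (the others 15229808 to 16482807).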

How the results depend on the processing

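The number of genes that passed (379, 159 higher and 220 lower) was 376 with DESeq2 size factors and 363 with limma voom. It was 562 without a filter on low counts (252 higher), 1265 with DESeq2 (609 higher, 656 lower), 738 with voom quality weights (291 and 447), 40 in 1 fit over all grouped libraries (29 and 11) and 2 against a fold of at least 2 (2 and 0). Without 1 library it ranged from 152 to 780 (59 to 313 higher, 93 to 467 lower). DESeq2 called all 379 genes, voom 325 of them and the fit over all grouped libraries 33 (8.71%). Among the 10 panel genes 0 passed in the fit over all grouped libraries and against a fold of at least 2. Of the genes in the lists, 19 passed, against 40 without a filter, 65 with DESeq2, 42 with quality weights, 2 in the fit over all grouped libraries, 0 against a fold of at least 2 and 12 to 46 without 1 library. The adjusted p of genes detected, of the share of the 10 highest genes and of the mitochondrial share was 0.0635 each, and lay between 0.0423 and 0.127 without 1 library, with 0.0423 for each without MYT410. Correlation within groups exceeded that between them by 0.01 over all genes and by 0.086 over the 1000 genes of highest variance. The medians of chromosomes 5, 6 and 12 kept their direction in each fit, an alternative chosen after seeing the data, while the fit over all grouped libraries called 4, 3 and 5 genes there and the test against a fold of 2 called 0. Among named genes that did not pass, the sign turned for Pkmyt1 (0.01 with quality weights, and -0.11 to 0.04 without 1 library, positive without MYT450 or MYT427), Ccne1 (-0.05 to 0.26, negative without MYT410 or MYT2641), Ccne2 (-0.08 to 0.33, negative without MYT410), Ighm (-0.03 to 1.12, negative without MYT410) and Esr1 (-0.41 to 0.01, positive without MYT427). Fewer samples in the fits without 1 library lower the number that can pass, and the cause of the rise without MYT410 was not tested. No paired analysis was possible because the groups share no title number. Depth limits genes near 1 CPM, where a library holds few counts.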
